A study of Mus musculus with 15 samples.

Results

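The cystatins Cst7, Cst3 and Cstb and the cathepsins Ctsa, Ctsb, Ctsc, Ctsd, Ctsl, Ctss and Ctsz were taken by name, and all 10 were found among the 36528 gene IDs of each sample. RNA had been sequenced from cells of the mouse cortex that were sorted for green fluorescent protein made from the Cx3cr1 locus, a gate that takes microglia, the resident macrophages of the brain. All samples of both groups came from mice with this reporter. The PS2APP group (n = 9) also carried the PS2APP transgenes, human amyloid precursor protein and presenilin 2 with mutations of familial Alzheimer's disease, and the non-Tg group (n = 6) was wild type for them. The sources used here do not give the promoters of the transgenes. Of the PS2APP samples 4 were 14 months old and 5 were 15 months old, and of the non-Tg samples 2 and 4. Whether each sample was a separate mouse is not stated, so the p-values below measure the spread between these samples.

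Cathepsins are proteases that mostly work in the acidic lumen of lysosomes and endosomes. Ctsb, Ctsc, Ctsl, Ctss and Ctsz encode cysteine proteases, Ctsd an aspartic protease and Ctsa a serine carboxypeptidase. Cystatins bind the active site of cysteine cathepsins and block it: cystatin C (Cst3) is secreted, stefin B (Cstb) stays in the cytosol and nucleus, and cystatin F (Cst7) is made as an inactive dimer that reaches endosomes and lysosomes. In microglia these enzymes break down phagocytosed material and cut the invariant chain of class II molecules.

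Each sample held between 3664742 and 8455237 counts (median 5867848), and the 10 genes took between 2.09% and 3.37% of them in non-Tg and between 2.47% and 4.55% in PS2APP. All 10 microglial markers were detected in every sample, with sums of 32659 to 43856 CPM (counts relative to library size, adjusted for library composition) in non-Tg and 26138 to 38136 in PS2APP. None of the 10 passed the test, but all 10 had a negative genotype estimate (median log2 -0.22) and 4 an unadjusted p under 0.05 (P2ry12, Tmem119, Cx3cr1 and Olfml3). Over all 13994 genes tested 47.3% had an estimate above 0 and 11.7% an unadjusted p under 0.05. Neuron markers summed to between 234 and 448 CPM in non-Tg and between 61.5 and 221 in PS2APP, groups that did not overlap, with 8 of 10 tested, 6 of them at an unadjusted p under 0.05 and 2 called lower, against 0.222% of all genes. In immediate early genes, which rise with handling of the tissue, PS2APP samples 1 and 4 (4008 and 4159 CPM) and non-Tg samples 9 and 13 (8903 and 16728) stood apart from the other libraries (239 to 398). The part of these differences in the results below was not tested except where values with and without them are given. In bulk RNA, fewer cells of a type and less RNA per cell cannot be told apart.

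The sequence around the start of Cst7 is shown because this gene had the smallest p-value of all genes tested. Cst7 lies on the plus strand at chr2:150570415-150578944 (RefSeq, GRCm38.p6), and the 250 bases before its start, chr2:150570165-150570414, have a GC content of 51.6%.

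Cst7 upstream: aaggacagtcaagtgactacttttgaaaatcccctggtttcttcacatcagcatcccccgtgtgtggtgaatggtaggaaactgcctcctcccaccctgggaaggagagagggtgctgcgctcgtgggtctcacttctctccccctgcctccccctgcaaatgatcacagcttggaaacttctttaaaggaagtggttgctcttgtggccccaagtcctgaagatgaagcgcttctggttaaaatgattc

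Windows of the same 250 bases were in the RefSeq table for 8 of the 10 genes, with 2 start sites for Ctsa and none for Cstb and Ctsb. Each was searched on both strands for CACGTG, the E-box core bound by TFEB, MITF and other basic helix-loop-helix factors, for GAGGAA, the core bound by PU.1, and for TGANTCA, the AP-1 site. None of the 3 was found in the Cst7 window, nor in that of Ctsz. CACGTG was present for 3 of the 8 genes, Ctsa, Ctsd and Ctsl, against 6.02% of all 32851 windows of this length, and Ctsd held it at 2 places. GAGGAA was present for Cst3, Ctsc and Ctss, against 23.3% of all windows, and TGANTCA for none, against 6.75%. The E-boxes are printed because Ctsl is a called gene and Ctsa and Ctsd followed each other across samples. They stand 12 bases before one Ctsa start (chr2:164833749-164833778, plus strand), 245 and 98 bases before the Ctsd start (chr7:142388055-142388077 and chr7:142387908-142387937, minus strand) and 236 bases before a Ctsl start (chr13:64370739-64370768, minus strand), with the E-box core in capitals and letters 5′ to 3′ on the gene's strand. The Ctsa and Ctsl stretches lie inside the RefSeq span of their gene (chr2:164832872-164841032 and chr13:64361890-64370772). Their starts are thus not the outermost ones. The window before the outer Ctsa start held none of the 3 strings, and no window before the outer end of Ctsl was searched. A match is a description of these letters, and no binding was measured.
Ctsa: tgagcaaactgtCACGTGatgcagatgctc
Ctsd, 245 bases before the start: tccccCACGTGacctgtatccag
Ctsd, 98 bases before the start: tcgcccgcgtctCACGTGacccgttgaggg
Ctsl: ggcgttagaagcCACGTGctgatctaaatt

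The first comparison asked which of these inhibitors and proteases differ between microglia of PS2APP and non-Tg mice. Cst7 was far higher in PS2APP and Ctsl was moderately higher. The other 8 genes, among them the most abundant cystatin and cathepsins, did not pass the test. With age as a covariate, edgeR's quasi-likelihood test called 2 of 10 genes at a Benjamini-Hochberg adjusted p under 0.05, both higher in PS2APP; over all 13994 genes tested 1.18% were called, 0.958% higher and 0.222% lower. At an unadjusted p under 0.05 there were 5 of the 10, namely Cst7, Ctsl, Ctsb, Ctsz and Ctsd, against 11.7% of all genes. The log2 fold change was above 0 for 9 of the 10 and for 47.3% of all genes. Its median was 0.36 over the 10 genes, 0.53 over the 7 cathepsins and -0.02 over all genes tested. The 10 were chosen with earlier results of these data known, so these counts and medians are a description only.

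**Figure D1:**
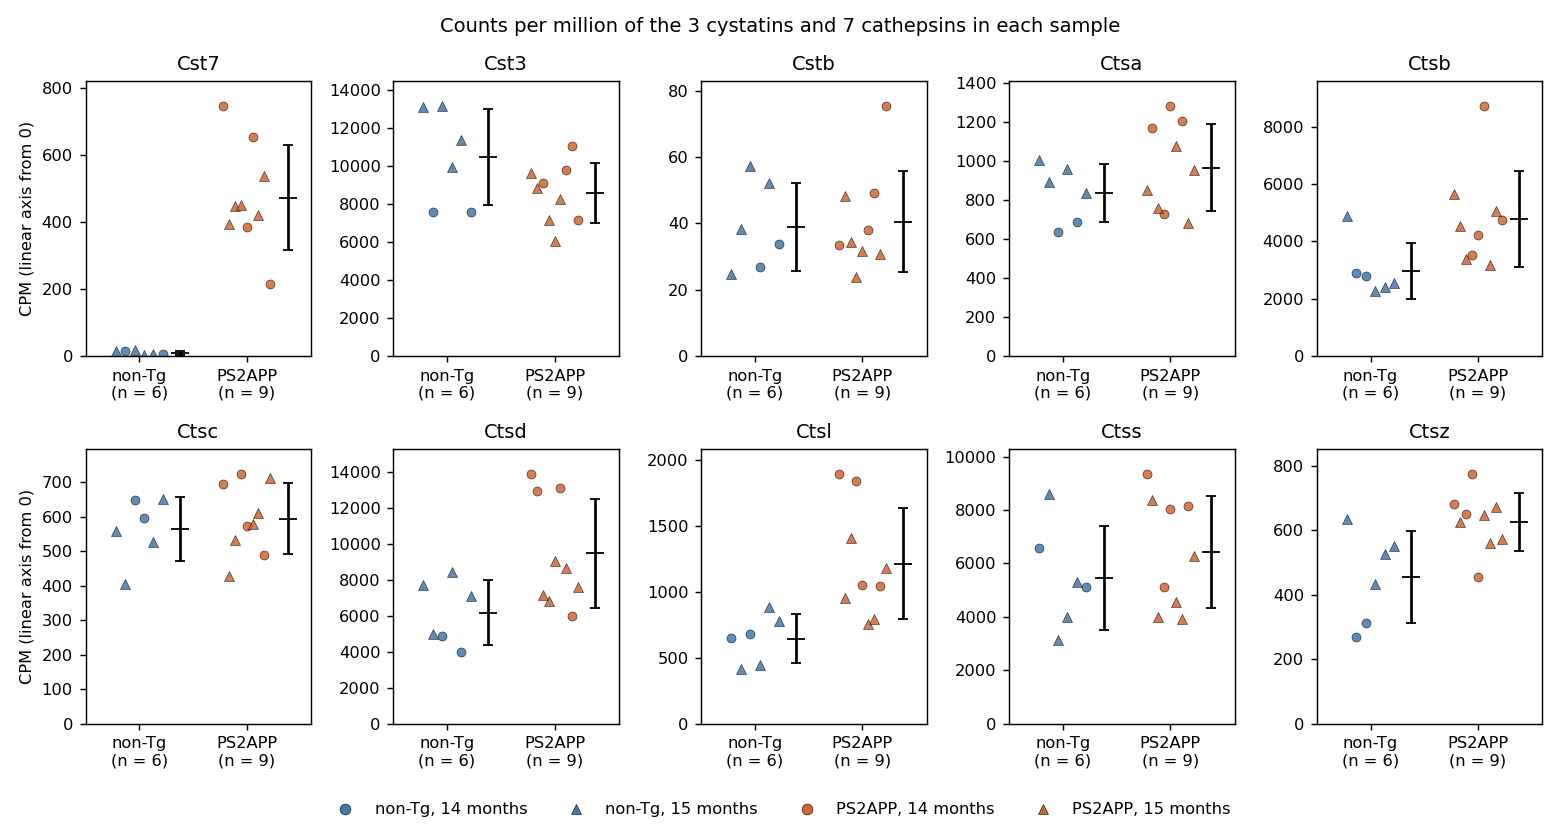
CPM of each of the 10 genes on linear axes from 0, with 1 point per sample (circles 14 months, triangles 15 months) and the mean ± SD of each group beside the points. The 9 PS2APP samples of Cst7 sit between 215 and 747 CPM, all above the non-Tg samples, while the groups of the other 9 genes overlap.

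Among the inhibitors, Cst7 stood at 3.51 CPM in the lowest non-Tg sample, 9.70 at the median and 16.8 in the highest. In PS2APP the lowest sample (4) was at 215 CPM, the median at 448 and the highest (6) at 747. The groups did not overlap, and the lowest PS2APP sample was 12.8 times the highest non-Tg sample; across all genes 0.572% had PS2APP wholly above non-Tg. Means were 10.1 ± 6.08 CPM (SD, n = 6) and 473 ± 157 (n = 9), a 47.6-fold difference with a 95% interval of 27.2 to 83.4 (log2 5.57 ± 0.39 SE; edgeR adjusted p = 2.6e-08). The gene was not silent in non-Tg, where each sample held between 28 and 96 of its reads and the 6 together 328. Relative to its mean it varied more in non-Tg, with a coefficient of variation of 60.4% against 33.1% in PS2APP. Cst7 passed whichever of the 15 samples was dropped and under 16 further settings, with log2 values from 5.16 to 6.05 in the latter. It was 5.27 without the 4 samples high in immediate early genes and 5.38 with the neuron score of each sample as a covariate.

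Cystatin F is also made by T cells, NK cells, mast cells and neutrophils. Markers of T and NK cells summed to 0.277 to 8.71 CPM in non-Tg and 0 to 2.05 in PS2APP, and of that list Ncr1 was at 0 in all samples. Neutrophil markers summed to 0 to 84.2 CPM in non-Tg and 0 to 9.21 in PS2APP, and mast cell markers to 0 to 0.620 and 0 to 3.40. Their part in the Cst7 values was not tested. No gene of these 3 lists had enough reads to be tested.

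Cst3, which encodes the secreted cystatin C, was the most abundant of the 10 genes in both groups on the scale per gene length used below. In CPM its PS2APP mean was 8577, against 9483 for Ctsd. Its non-Tg samples ran from 7593 CPM through a median of 10651 to 13178, and its PS2APP samples from 6072 through 8854 to 11093. The groups overlapped, although 8 of 9 PS2APP samples lay below the non-Tg median. It was the only one of the 10 with a negative estimate, a log2 difference of -0.27 ± 0.16 (SE; edgeR adjusted p = 0.536). Astrocytes and the choroid plexus also make cystatin C: markers of astrocytes summed to 459 to 1095 CPM in non-Tg and 321 to 628 in PS2APP, and those of the choroid plexus to 10.3 to 432 and 14.0 to 34.7. Of the choroid plexus markers Ttr (log2 -3.40 ± 0.82 SE; edgeR adjusted p = 0.0405) and Enpp2 (-2.51 ± 0.58, 0.0312) were lower in PS2APP. Of the astrocyte markers Slc1a2 was lower (-1.01 ± 0.22, edgeR adjusted p = 0.0202) and Gfap higher (2.08 ± 0.42, 0.0120). The part of these cells in the Cst3 values was not tested.

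Cstb, the intracellular stefin B, was low at 38.9 ± 13.3 CPM (SD, n = 6) in non-Tg and 40.6 ± 15.4 (n = 9) in PS2APP, with a log2 difference of 0.02 ± 0.26 (SE; edgeR adjusted p = 0.992). The 95% interval of the Cstb fold change was 0.696 to 1.47. Differences within that range remain possible, and the interval is not a limit of detection.

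Among the cysteine cathepsins Ctsl, an endopeptidase of lysosomes, ran from 418 CPM through a median of 668 to 890 in non-Tg. In PS2APP it ran from 758 CPM through 1051 to 1896. All 9 PS2APP samples lay above the non-Tg median and 7 above the highest non-Tg sample, and the groups overlapped only in the range of PS2APP samples 14 and 15. The fold change was 1.80 (log2 0.85 ± 0.21 SE; edgeR adjusted p = 0.0496), and by p-value Ctsl was the 165th of the 165 genes called. The call was lost when any of 9 samples was left out: PS2APP 1, 6, 7, 8 or 10 or non-Tg 2, 5, 12 or 13, with adjusted p from 0.0650 to 0.130. The log2 fold change without each of these 9 stayed between 0.76 and 0.86, and 6 of the 15 such fits kept the call. With the neuron score as a covariate the Ctsl estimate was 1.03 ± 0.37 (SE; edgeR adjusted p = 0.9999).

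Ctsb, an endopeptidase and carboxypeptidase, ran from 2256 CPM through a median of 2667 to 4885 in non-Tg and from 3189 through 4539 to 8732 in PS2APP. Every PS2APP sample lay above the non-Tg median, and the highest non-Tg sample (11) reached into the PS2APP range. The log2 fold change was 0.67 ± 0.21 (SE; edgeR adjusted p = 0.162). Without non-Tg sample 11 it was 0.88 and passed (adjusted p = 0.0190), and it passed in 3 of 31 alternative settings in all. Ctsz, a carboxypeptidase, was at 455 ± 143 CPM (SD, n = 6) in non-Tg and 628 ± 90.1 (n = 9) in PS2APP, with a log2 difference of 0.53 ± 0.17 (SE; edgeR adjusted p = 0.173).

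The remaining cysteine cathepsins gave smaller estimates. Ctss, the endopeptidase that trims the invariant chain and stays active at neutral pH, ran from 3141 through 5211 to 8606 CPM in non-Tg and from 3918 through 6286 to 9352 in PS2APP, a log2 difference of 0.17 ± 0.21 (SE; edgeR adjusted p = 0.825). Ctsc, the dipeptidyl peptidase that activates granule serine proteases and is a target of cystatin F, was at 565 ± 92.2 CPM (SD, n = 6) and 594 ± 102 (n = 9), a log2 difference of 0.06 ± 0.14 (SE; edgeR adjusted p = 0.925). The 95% interval of the Ctsc fold change was 0.847 to 1.28. The groups of both genes overlapped over most of their range.

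Of the proteases outside the cysteine class, Ctsd, the main aspartic endopeptidase of lysosomes, ran from 3972 through 6056 to 8443 CPM in non-Tg and from 5992 through 8698 to 13912 in PS2APP. PS2APP samples 4, 6 and 8, all of 14 months, lay apart at 12970 to 13912 CPM, and the other 6 overlapped with non-Tg or lay just above it. The log2 fold change was 0.58 ± 0.21 (SE; edgeR adjusted p = 0.245). Ctsa, which also protects neuraminidase 1 and beta-galactosidase in a lysosomal complex, was at 837 ± 148 CPM (SD, n = 6) and 967 ± 225 (n = 9), a log2 difference of 0.20 ± 0.17 (SE; edgeR adjusted p = 0.717).

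**Figure D2:**
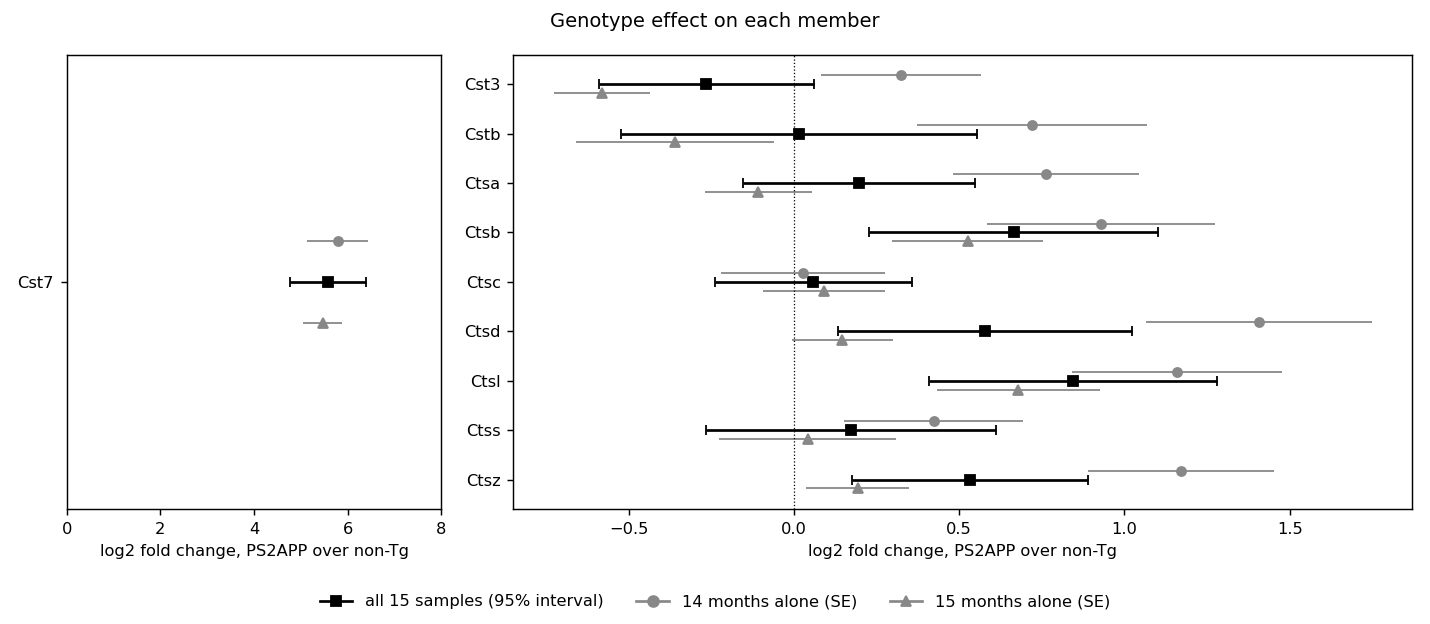
Log2 fold change of PS2APP over non-Tg for each gene, with black squares for all 15 samples (bars, 95% interval) and grey symbols for 14 months alone (circles) and 15 months alone (triangles; bars, SE). Cst7 has its own axis, at 5.57, and the 14-month estimates of Cst3, Cstb, Ctsa, Ctsd and Ctsz lie to the right of the 15-month ones by more than the sum of both bars.

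The second comparison asked whether the genotype difference was the same at 14 and 15 months. Cst7 was called at each age alone, at log2 5.79 ± 0.65 (SE; edgeR adjusted p = 0.00643) and 5.47 ± 0.41 (adjusted p = 5.1e-06). Ctsd was at 4443 ± 666 CPM (SD, n = 2) in non-Tg and 11496 ± 3693 (n = 4) in PS2APP at 14 months, and at 7068 ± 1485 (n = 4) and 7872 ± 964 (n = 5) at 15 months. The genotype difference of Ctsd was thus log2 1.41 ± 0.34 (SE) at 14 months and 0.15 ± 0.15 at 15 months. Ctsz moved in the same manner, from 291 and 641 CPM in non-Tg and PS2APP at 14 months to 537 and 617 CPM at 15 months. Its 2 non-Tg samples of 14 months, at 269 and 314 CPM, were the lowest of all 15. For Cst3 the sign turned: PS2APP was above non-Tg at 14 months (9289 against 7603 CPM) and below it at 15 months (8007 against 11902 CPM). At 15 months the 4 non-Tg samples lay above all 5 PS2APP samples (log2 -0.58 ± 0.14 SE, edgeR adjusted p = 0.122). The share of all genes that separate at this age was not computed, so the separation is a description only.

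The genotype by age term, which compares these differences, was negative for 9 of the 10 genes, meaning a smaller or more negative genotype difference at 15 months. The share of all genes with a negative term was not computed, so this count is not read as a trait of the 10. Before adjustment 5 of the 10 genes lay under 0.05, against 7.42% of all genes, a count not read as a trait of the 10 either. They were Ctsd (log2 -1.22 ± 0.34 SE), Cst3 (-0.86 ± 0.26), Ctsz (-0.94 ± 0.29), Ctsa (-0.83 ± 0.30) and Cstb (-1.04 ± 0.49). After adjustment edgeR called none of the 10 genes and 0.0% of the 13994 tested; its adjusted p was 0.568 for Ctsd, the smallest of the 10, and 0.612 for Cst3 and Ctsz. DESeq2 called 6 genes, none of them among the 10. The genotype difference was therefore not shown to differ between the ages, and only 2 non-Tg samples of 14 months carry the term. One of them, sample 13, is the library highest in immediate early genes and among the 3 low in Xist; without it the estimates were -1.08 for Ctsd, -0.87 for Cst3, -0.84 for Ctsz, -0.90 for Ctsa and -1.23 for Cstb (edgeR adjusted p from 0.595 to 0.651). That fit leaves 1 non-Tg sample of 14 months, which is assumed to vary like the other groups. On simulated counts with these samples the interaction test recovered 1% of genes given a 2-fold difference and 25% given a 4-fold one, with 7.14% false calls. The changed genes were drawn at random from all 13994, so these shares are not those of genes at the level of the 10.

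**Figure D3:**
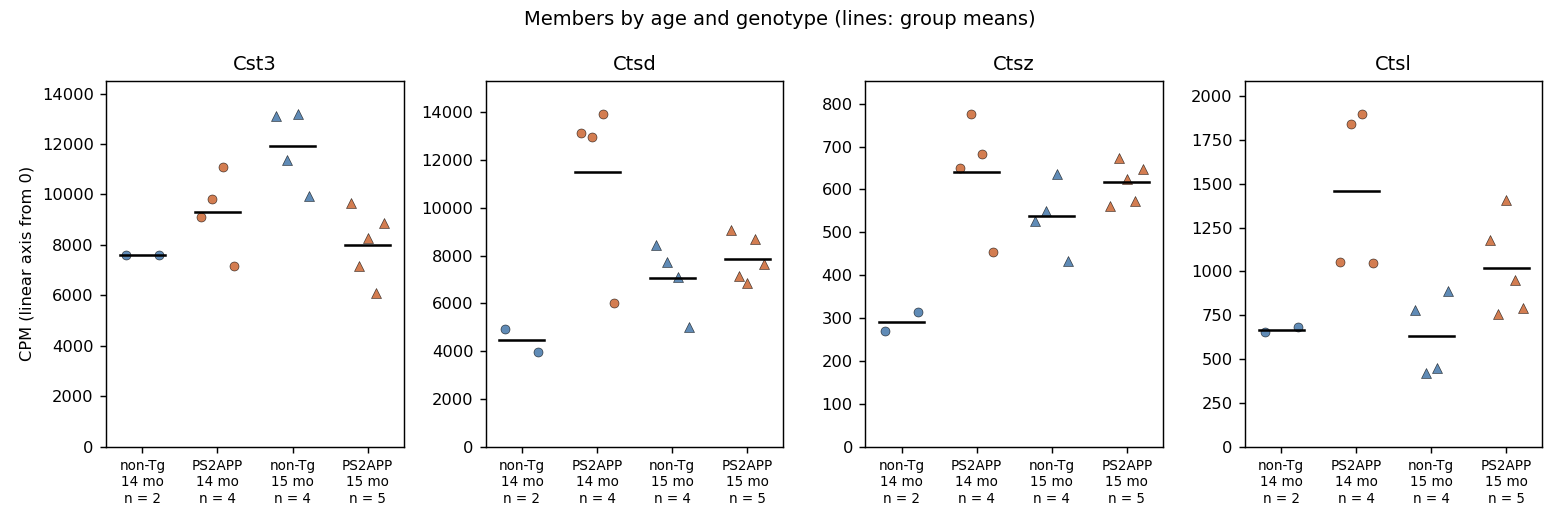
CPM of Cst3, Ctsd, Ctsz and Ctsl by age and genotype on linear axes from 0, with 1 point per sample and lines at group means. For Ctsd and Ctsz the gap between the group means is wider at 14 months (2 non-Tg and 4 PS2APP samples) than at 15 months (4 and 5), and for Cst3 the order of the means turns.

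For age, an effect shared by both genotypes was fitted, and age within each genotype was not tested. Between 14 and 15 months no gene of the 10 passed this test. Neither did any of the 13994 tested, 7.95% of which had an unadjusted p under 0.05. Opposite moves partly cancel in a shared effect: mean Ctsd went from 4443 to 7068 CPM in non-Tg and from 11496 to 7872 in PS2APP. The age estimates of the 10 genes lay between -0.37 (Ctss) and 0.28 (Ctsz) on the log2 scale, with an unadjusted p of at least 0.0908. DESeq2 called 12 genes by age, again none of the 10.

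The genes can be ordered by level only on a scale per gene length, the deposited nRPKM (reads scaled by gene length and library size). In non-Tg the order from high to low was Cst3 (3766 ± 897 nRPKM, SD, n = 6), Ctss (1069 ± 378), Ctsd (846 ± 243), Ctsb (167 ± 54.6), Ctsz (87.2 ± 27.2), Ctsl (74.1 ± 21.1), Ctsa (61.6 ± 10.8), Ctsc (28.0 ± 4.56), Cstb (17.2 ± 5.84) and Cst7 (2.73 ± 1.65). Neighbours in the order were compared within samples by an exact sign-flip permutation test on log2(nRPKM + 1), two-sided, and 6 of 9 differed, each at p = 0.0312 (adjusted p = 0.0469), the smallest that 6 samples allow. Ctss and Ctsd (exact permutation p = 0.344), Ctsz and Ctsl (0.438), and Ctsl and Ctsa (0.312) did not differ beyond their spread.

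In PS2APP the order was Cst3 (3077 ± 552 nRPKM, SD, n = 9), Ctsd (1292 ± 412), Ctss (1255 ± 409), Ctsb (269 ± 93.9), Ctsl (139 ± 47.8), Cst7 (128 ± 42.1), Ctsz (120.0 ± 16.9), Ctsa (71.0 ± 16.4), Ctsc (29.4 ± 5.10) and Cstb (17.9 ± 6.74). Cst7 had moved from the last place to the sixth. It did not differ beyond its spread from Ctsl above it (exact permutation p = 0.465) or from Ctsz below it (0.863). Its place next to Ctsz rests on single samples: without PS2APP sample 6, Cst7 stood below Ctsz. Ctsd and Ctss were again inseparable (exact permutation p = 0.801). The other 6 neighbouring pairs differed, with adjusted p of 0.00703 for 5 of them and 0.0117 for Ctsc over Cstb. Cst3 kept the first place in both groups and Ctsb the fourth.

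**Figure D4:**
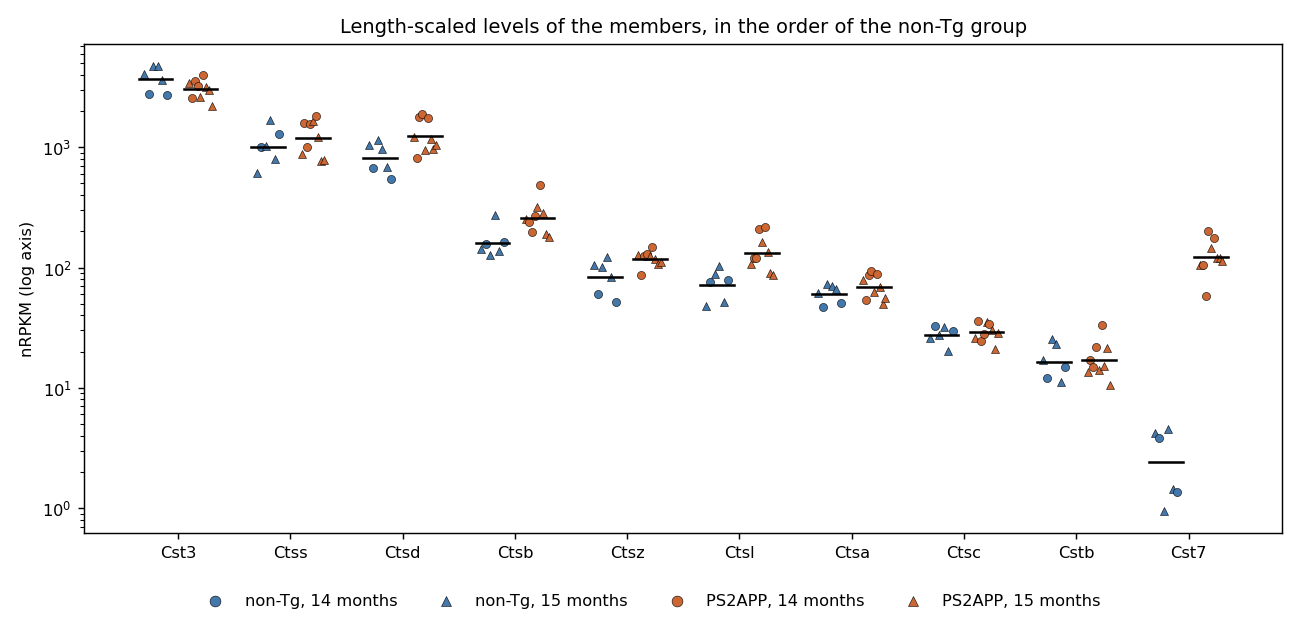
Deposited nRPKM of the 10 genes on a log axis, ordered by the non-Tg group, with 1 point per sample and lines at the group mean of log2(nRPKM + 1) turned back to nRPKM. Cst7 moves from the last place to the sixth, where it is not separated from Ctsl or Ctsz. Its mean is 2.73 nRPKM in non-Tg and 128 in PS2APP.

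As a description that follows from these levels, Cst7 made up 0.0745% ± 0.0453 (SD, n = 6) of the summed nRPKM of the 3 cystatins in non-Tg and 4.03% ± 1.26 (n = 9) in PS2APP. Cst3 made up 99.5% and 95.4%. The level of Cst7 as a share of that of its target Ctsc was 9.57% ± 5.29 in non-Tg and 439% ± 143 in PS2APP, and as a share of Ctsl 4.0% ± 2.84 and 95.1% ± 25.6. The summed nRPKM of the 7 cathepsins was 0.631 ± 0.130 times that of the 3 cystatins in non-Tg and 0.988 ± 0.177 times in PS2APP. Ctss and Ctsd together made up most of the cathepsin sum in every sample, with means of 45.3% and 36.7% in non-Tg and 39.3% and 40.8% in PS2APP.

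The 10 genes also varied among the PS2APP samples, and 42 of their 45 pairs correlated positively on log2 CPM (Pearson's r over 9 samples). The share of positive pairs among all genes was not computed. The pairs share genes and the libraries share composition, so the 42 are a description only. By an exact permutation test 11 pairs had an unadjusted p under 0.05 and 4 passed adjustment over the 45. Ctsa and Ctsd gave r = 0.93 and rho = 0.90 (exact permutation p = 0.00100 and 0.00203), and r was 0.93 without the 2 samples farthest from the median of Ctsa. Ctsl and Ctss gave r = 0.88 and rho = 0.85 (p = 0.00201 and 0.00607 by exact permutation), with r = 0.86 without 2 samples. Ctsb and Ctsl gave r = 0.83 and rho = 0.88 (exact permutation p = 0.00364 and 0.00308), with r = 0.67 without PS2APP samples 8 and 15. Ctsa and Ctsz gave r = 0.80 and rho = 0.93 (exact permutation p = 0.00336 and 0.000750), with r = 0.84 without 2 samples. All 4 had an adjusted p of 0.0409 for r by exact permutation; for rho it was 0.0337 to 0.0461 in 3 pairs and 0.0683 for Ctsl with Ctss.

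No pair of Cst7 was called. Its r was 0.63 with Ctsl, 0.60 with Ctsb, 0.12 with Ctsd and 0.06 with Cst3 (adjusted exact permutation p = 0.184, 0.227, 0.854 and 0.930), and without PS2APP samples 4 and 6, its lowest and highest, these were 0.83, 0.82, 0.65 and 0.47. With each gene centred on its age mean, an analysis added after the data were seen, r was 0.90 for Ctsa with Ctsd, 0.82 for Ctsl with Ctss, 0.85 for Ctsb with Ctsl and 0.89 for Ctsa with Ctsz. By exact permutation within ages the adjusted p was 0.119, 0.0742, 0.0312 and 0.0742, so only Ctsb with Ctsl of the 45 pairs stayed under 0.05. The r of Cst7 with Ctsl was then 0.76 (adjusted exact permutation p = 0.147). The number of pairs called rests on single samples: it was 0 without PS2APP sample 1, 4, 8, 10 or 15, 1 without sample 3 and up to 5 without another.

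**Figure D5:**
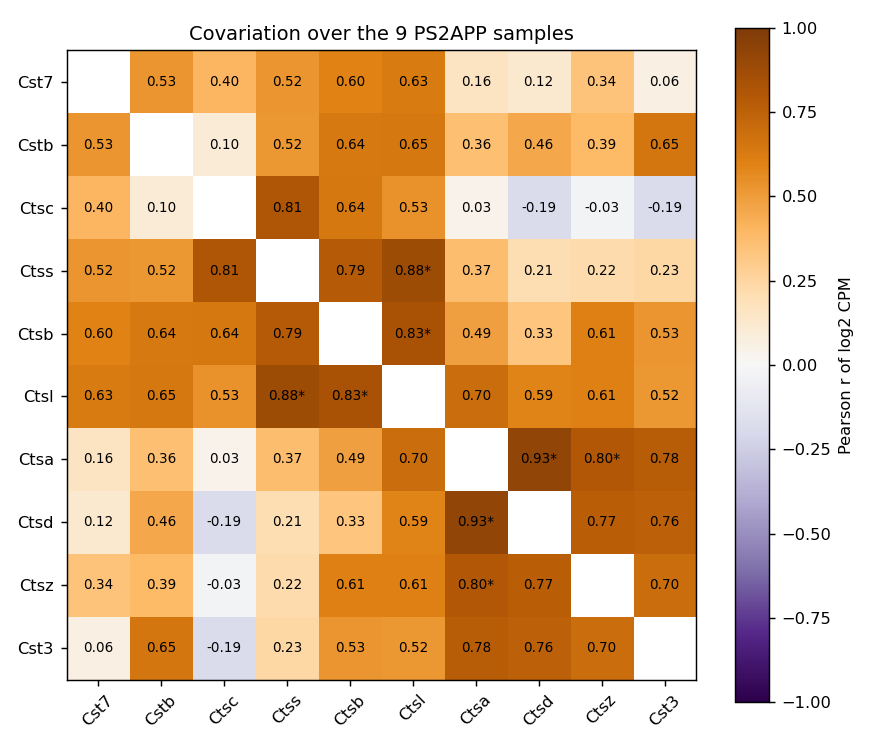
Pearson's r of log2 CPM between each pair of the 10 genes over the 9 PS2APP samples, on a colour scale from -1 to 1 with the value printed in each cell. An asterisk marks the 4 pairs with an adjusted permutation p under 0.05, which join Ctss, Ctsl and Ctsb, and Ctsd, Ctsa and Ctsz, while the Cst7 row holds none.

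For 6 of the genes the 3 most similar among 7589 genes whose average log2 CPM reached 4 were taken by r over the same 9 samples, as a description without a test. For Cst7 these were Cd200r4, a paired receptor related to that for CD200 (r = 0.96), Gpnmb, a transmembrane glycoprotein of late endosomes and lysosomes (0.93), and the ribosomal protein gene Rpl15 (0.92). Cd200r4 and Gpnmb were higher in PS2APP, by log2 4.94 ± 0.48 (SE; edgeR adjusted p = 1.5e-06) and 7.11 ± 0.57 (adjusted p = 9.1e-08), and Rpl15 stood at -0.01 ± 0.32 (adjusted p = 0.995). Over the 6 non-Tg samples r with Cst7 was -0.40, -0.07 and -0.34, but Cst7 held only 28 to 96 reads in each of them, too few to read a likeness or its absence.

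For Ctsb the nearest genes were Cd63, a tetraspanin of late endosomes (r = 0.97 in PS2APP and 0.91 in non-Tg), Nceh1, a cholesterol ester hydrolase (0.95 and 0.95), and Casp9 (0.95 and 0.65). For Ctsd they were Snx29 (0.96 and -0.33), Hexa, the alpha subunit of hexosaminidase (0.94 and 0.95), and Slc41a3 (0.94 and 0.01). For Ctsl they were Itm2b (0.97 and 0.99), Gusb, the lysosomal beta-glucuronidase (0.95 and 0.36), and Oxct1 (0.94 and 0.83). For Cst3 they were Tspan4, Hvcn1 and Cand2 (0.97, 0.95 and 0.94 in PS2APP), and for Ctsz Tcn2, Aldoa and Coro1c (0.96, 0.94 and 0.92). Of the 18 genes Nceh1 was called besides Cd200r4 and Gpnmb, at log2 1.51 ± 0.29 (SE; edgeR adjusted p = 0.00658).

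The wider protease and lysosome system was read from lists of genes. These were chosen with earlier results of these data known, so their counts are a description only. The shares to set beside each count below are those over all genes tested, 1.18% called and 11.7% at an unadjusted p under 0.05. No other cystatin was expressed at a level that could be tested: of 20 listed family genes 12 had no read in any sample, and the highest, Csta1, reached 3.11 CPM in 1 sample. Of 13 serpins and other inhibitors of granule or lysosomal proteases 4 were tested and 1 was called, higher in PS2APP, against 0.958% of all genes. Serpine2, a serine protease inhibitor also known as protease nexin 1, was at 564 ± 112 CPM (SD, n = 6) in non-Tg and 967 ± 295 (n = 9) in PS2APP (log2 0.74 ± 0.18 SE; edgeR adjusted p = 0.0421).

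Of the 16 other cathepsins 6 were tested and none was called or had an unadjusted p under 0.05. Those with the smallest adjusted p were Ctse, an aspartic protease of endosomes (log2 1.07 ± 0.68 SE, edgeR adjusted p = 0.580; 14.2 and 30.2 CPM in non-Tg and PS2APP), Ctsf (-0.17 ± 0.15) and Ctso (-0.09 ± 0.16). Ctsh, an aminopeptidase and the most abundant of them, was at 425 ± 102 CPM (SD, n = 6) and 461 ± 96.5 (n = 9). Of the 7 granule serine proteases that cathepsin C activates none had enough reads to be tested, and the highest value in a sample was 0.828 CPM, for Cma1. All 5 other lysosomal peptidases were tested and none was called. The 2 at an unadjusted p under 0.05 were Lgmn, the asparaginyl endopeptidase that processes cathepsins (-0.26 ± 0.12, edgeR adjusted p = 0.416), and Dpp7 (0.87 ± 0.33, 0.261). Scpep1 came next (0.25 ± 0.19, 0.664).

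The partners of cathepsin A, Glb1 (0.44 ± 0.21 SE, edgeR adjusted p = 0.418) and Neu1 (-0.09 ± 0.26, 0.939), did not pass. None of 11 genes that sort lysosomal enzymes was called, 2 had an unadjusted p under 0.05, and the closest was Gnptab, which makes the mannose 6-phosphate tag (0.64 ± 0.16, edgeR adjusted p = 0.0535), followed by Gga2 and Sort1 (0.70 ± 0.29 and -0.19 ± 0.14). Of 22 lysosomal membrane proteins and sphingolipid enzymes none was called, while 7 had an unadjusted p under 0.05, against 11.7% of all genes, and 16 had a log2 fold change above 0, against 47.3%. Of these Cd63 (0.93 ± 0.23, edgeR adjusted p = 0.0534), Galc, the galactosylceramidase (0.76 ± 0.19, 0.0560), and Cd68 (0.41 ± 0.14, 0.193) had the smallest adjusted p. Of 16 V-ATPase subunits none was called and 4 had an unadjusted p under 0.05; Atp6v0d2 rested on 40 reads in non-Tg and 559 in PS2APP (3.45 ± 0.89, edgeR adjusted p = 0.0653), before Atp6v1a (0.56 ± 0.18) and Atp6ap2 (0.60 ± 0.22).

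Of 10 regulators of lysosomal gene transcription 9 were tested and none was called, 3 at an unadjusted p under 0.05; Mitf stood at 0.65 ± 0.19 (SE; edgeR adjusted p = 0.113). Rragd, at 11.2 and 23.7 CPM in non-Tg and PS2APP, had an adjusted p of 0.181, and Flcn stood at 0.30 ± 0.13 (edgeR adjusted p = 0.351). Of 12 genes of the class II and endosomal receptor pathway in which cathepsin S acts 11 were tested and none was called, 1 at an unadjusted p under 0.05. Cd74, the invariant chain itself, had a log2 difference of 0.89 ± 0.27 (edgeR adjusted p = 0.141), H2-Aa of 0.73 ± 0.36 and H2-Ab1 of 0.55 ± 0.36. The median log2 fold change of these lists lay between -0.06 (class II pathway) and 0.18 (cathepsin A partners), against -0.02 over all genes tested, except the serpins at 0.73.

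The 10 genes lie on 6 chromosomes, and their tested neighbours were read as a check on the loci. Of 24 genes that overlap a member or lie next to it none was called, and their log2 fold changes ran from -0.65 to 0.61 with a median of 0.05. Beside Cst7, Apmap starts 4136 bases away (log2 0.23 ± 0.25 SE; edgeR adjusted p = 0.790), and Zfp442 lies on the other side (-0.30 ± 0.50, 0.880). Ctsz lies next to Gnas, a stimulatory G protein subunit (0.61 ± 0.18, edgeR adjusted p = 0.115). Ctsa overlaps Neurl2 and Pltp, Ctsb overlaps Fdft1, Ctsz overlaps Nelfcd, Ctsc overlaps Gm26522 and Gm44751, Ctsd overlaps Gm49369, Ctss overlaps Hmgb1-ps5 and Ctsl the antisense Gm47123, and without stated strandedness reads in the shared bases cannot be told apart. Cst7, Cst3 and Cstb overlap no annotated gene.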

How the data were processed

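The authors deposited, for each of the 15 samples, 2 values per NCBI gene ID. One is a whole-number count of uniquely aligned reads per gene model and the other nRPKM, an RPKM adjusted by a size factor, both per the file headers. GSNAP and GRCm38 are named in the submitters' processing notes; the sources used here do not give the version, annotation, kit or strandedness. Symbols came from RefSeq (GRCm38.p6), which matched 31049 of 36528 IDs. Counts compared over 51 pairs of samples within groups gave a chi-square per degree of freedom of 9.98 to 67.5. This is more than reads of a single library counted again would give. Each sample was therefore counted once, but the spread cannot show whether samples came from separate mice.

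Counts were fitted with edgeR 4.0.16 (R 4.3.3) by a quasi-likelihood model of age and genotype over all 15 samples, after TMM scaling and filterByExpr on genotype, which kept 13994 genes. Genotype, age and their interaction were each called at a Benjamini-Hochberg adjusted p under 0.05 over all genes. Levels are CPM on TMM-scaled libraries, and each SE is the log2 fold change divided by the root of F. With these total counts (3664742 to 8455237) a gene at 0 has a floor of 3 reads; precision is limited by the spread between samples. On simulated counts the genotype test recovered 33% of genes with a 2-fold change and 77% with a 4-fold change, with 3.51% false calls. The changed genes were drawn at random from all genes tested, whatever their level.

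Orders of level used the deposited RPKM on log2(nRPKM + 1), and correlations used log2 CPM with a prior count of 2. Alternatives were DESeq2 1.42.0, limma 3.58.1 (voom with quality weights, or trend on nRPKM), other scalings, filters, covariates, ages and samples. Named were the 10 members, called genes of each list or else up to 3 of smallest adjusted p, the 3 genes most like each of 6 members, and the nearest tested neighbours; Csta1, Cma1, Ctsh, Ncr1 and Olfml3 were added after their values were seen. The members and lists were chosen with earlier results of these data known, including the 2 sets of libraries left out.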

Additional observations from a re-analysis of the deposited data

Results flagged for a closer look

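For 20 groups (10 genes per genotype) the gap from the highest or lowest sample to its nearest neighbour was compared with the group's range. The rule is set to be met in about 1 in 20 separate groups. These groups share libraries and the values are linear CPM, so that rate need not hold here. It was met in 3 groups. PS2APP sample 8 was the highest of 9 for Cstb, at 75.5 CPM against a group median of 34.3. The same sample was the highest of 9 for Ctsb, at 8732 CPM against a median of 4539. Non-Tg sample 11 was the highest of 6 for Ctsb, at 4885 CPM against a median of 2667, and without it the genotype difference of Ctsb passed the test (log2 0.88, edgeR adjusted p = 0.0190). PS2APP sample 8 also had the lowest sum of neuron markers of all 15, at 61.5 CPM; its part in these values was not tested.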

How the results depend on the processing

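No paired analysis was possible because the 2 groups share no replicate numbers. The count of 165 genes called by genotype became 390 with DESeq2, 648 with all genes that had a read, 50 at 14 months, 65 at 15 months, 81 without the 3 libraries low in Xist (PS2APP 14, non-Tg 12 and 13), 15 with the neuron score as a covariate, and 118 to 188 with a sample left out. Cst7 was called throughout. Ctsl was called in 13 of 31 settings; it was not with a CPM of at least 2 in 6 samples (0.83), on log2(nRPKM + 1) (0.84) or + 0.1 (0.85), at 14 months (1.16), at 15 months (0.68), without the libraries low in Xist (0.77), with the neuron score (1.03) or the immediate early score (0.83) as a covariate, without the samples highest in immediate early genes, PS2APP 1 and 4 and non-Tg 9 and 13 (0.96), and in 9 of 15 fits without a sample (0.76 to 0.99 over all 15), with adjusted p from 0.0523 to 0.9999. Ctsb passed with voom (0.76), with all genes (0.68) and without non-Tg sample 11 (0.54 to 0.88 over all 15), and Ctsd with all genes (0.59). Signs turned for Cst3 at 14 months (0.32), Cstb at 15 months (-0.36), without the libraries low in Xist (-0.31), with the neuron score (-0.18) and with a sample left out (-0.14 to 0.16), Ctsa at 15 months (-0.11), and Ctsc with the neuron score (-0.0091) and with a sample left out (-0.0186 to 0.12). The 0 interaction calls became 6 with DESeq2 and 0 to 3 with a sample left out (3 without non-Tg sample 5, 1 without 11), and signs turned for Cst7 (-1.17 to 0.32) and Ctsc (-0.0293 to 0.21) with a sample left out and for Ctsb (0.0378) and Ctss (0.0010) with voom. The 0 age calls became 12 with DESeq2 and 1 without these 4 samples; signs turned for Cst3 without these (-0.0250) and, with a sample left out, for Cst7 (-0.22 to 0.11), Cst3 (-0.0109 to 0.17), Cstb (-0.32 to 0.0392), Ctsa (-0.16 to 0.0241) and Ctsb (-0.27 to 0.0615). DESeq2 gave no adjusted age p for Cstb. The non-Tg order of level was the same without any sample, but 5 samples cannot pass the exact test, so 6 separated neighbours became 0 to 0; pairs of genes called in PS2APP went from 4 to 0 to 5, and to 1 with genes centred within ages, added after the data were seen. The causes were not tested. For the other genotype, interaction and age results every setting run left direction and call as they were.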
